A study of Mus musculus with 18 samples.

Results

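The 10 genes described here encode 3 Notch receptors (Notch1, Notch2 and Notch3), 3 ligands (Dll1, Dll3 and Jag1) and 4 transcriptional targets of the Hes and Hey families (Hes1, Hes5, Hey1 and Hey2). They were taken by name from 4 tables of mouse RNA-seq, which together list 56589 gene names. A name that the table joined to a neighbouring gene was accepted, and each of the 10 names had 1 entry in each table. Another 46 genes of the pathway were followed beside them.

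Notch receptors are membrane proteins that are cut when a Delta or Jagged ligand on a neighbouring cell binds them. The released intracellular part joins the DNA-binding protein RBPJ in the nucleus and switches on Hes and Hey genes, whose products are repressors of proneural genes such as Neurog2. In the embryonic forebrain this pathway is known for keeping radial glia undifferentiated, while cells that start to differentiate carry the ligands. Dll3 is an unusual ligand that acts mainly within the cell that makes it and dampens signalling there.

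All samples were from mice at postnatal day 0. The Kdm2b cKO, labelled Kdm2bEmx1-delta-CxxC, lacks the zinc finger (CxxC) by which the chromatin protein KDM2B binds CpG islands, and its Cre is driven by Emx1, a gene of the dorsal forebrain. It was profiled in 3 hippocampi beside 3 control hippocampi, in 2 cultures of hippocampal neurospheres beside 2, and in 2 cortices beside 2. The Rnf2 cKO, labelled Rnf2Emx1-cKO, lacks the PRC1 ubiquitin ligase RING1B in the Emx1 lineage and was profiled in 2 hippocampi beside 2. Controls carried the floxed allele as Kdm2bfl/+ or Kdm2bfl/fl (Rnf2fl/+ or Rnf2fl/fl for Rnf2), and the labels do not say which of the pair a control library was. Cells outside the Emx1 lineage, such as those of vessels, microglia and interneurons, are not targeted by this Cre. Neurospheres are floating balls of progenitors grown from newborn hippocampi in FGF2 and EGF, and were passaged before their RNA was taken.

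Expression was given as FPKM, the number of fragments scaled by transcript length and by the mapped fragments of the library, which allows genes to be compared per length within a table. A gene was called when its log2 fold change, computed on log2(FPKM + 1), was beyond 0.4 in either direction with an unadjusted limma p under 0.05. Adjusted p-values are Benjamini-Hochberg values over all genes tested in a table. The pseudocount of 1 makes fold changes of low genes smaller than the ratio of their FPKM. No label says that the libraries of a group came from separate animals or cultures, so p-values measure only the spread between these libraries.

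One library stood apart. The first control neurosphere library had 29.3% of its FPKM in entries with no gene name, against 0.876% to 1.95% in the other 3 neurosphere libraries, so neurosphere results are also given without it. In a bulk tissue, fewer cells of a type and less RNA per cell cannot be told apart. The targeted transcripts changed little at gene level. Kdm2b was 29.4 ± 2.15 FPKM in control and 27.2 ± 0.992 in cKO hippocampi (SD, n = 3 each), 22.1 against 23.1 in neurospheres and 16.3 against 14.8 in cortex, and Rnf2 was 31.5 ± 1.02 against 28.1 ± 0.494 in the Rnf2 hippocampi (SD, n = 2 each). A sum over the whole gene includes exons outside the deleted part and does not check the deletion. The reads behind each hippocampal and neurosphere library could not be recovered from the FPKM. Cortical and Rnf2 values were multiples of 1 read, whole within 0.05 of a read, which gave 18463270 to 21884591 reads per cortical library and 14654894 to 16334420 per Rnf2 library.

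On build GRCm38 the receptor genes lie at chr2:26457903-26516663 (Notch1, minus strand), chr3:98013527-98150361 (Notch2, plus) and chr17:32120820-32166880 (Notch3, minus). The ligand genes lie at chr17:15367354-15376872 (Dll1, minus), chr7:28293553-28302238 (Dll3, minus) and chr2:137081456-137116644 (Jag1, minus). The target genes lie at chr16:30064384-30067796 (Hes1, plus), chr4:154960923-154962371 (Hes5, plus), chr3:8663359-8667256 (Hey1, minus) and chr10:30832359-30842801 (Hey2, minus). Each value below is for the whole gene, without a split by exon or transcript.

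A pair of RefSeq promoters is shown because their genes, Hes5 and Hey2, had the largest fold changes of the 10 genes in neurospheres and because both hold the letters that RBPJ is known to bind. Each run is the 250 bases before the transcription start on build GRCm38.p6, printed 5′ to 3′ on the strand of the gene, with GTGGGAA or its reverse complement TTCCCAC in capitals.
Hes5 (chr4:154960673-154960922, plus strand): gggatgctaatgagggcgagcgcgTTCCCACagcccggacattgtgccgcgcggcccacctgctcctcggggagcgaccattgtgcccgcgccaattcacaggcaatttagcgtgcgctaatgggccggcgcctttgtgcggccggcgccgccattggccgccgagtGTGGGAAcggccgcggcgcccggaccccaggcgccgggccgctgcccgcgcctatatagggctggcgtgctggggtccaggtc
Hey2 (chr10:30842784-30843033, minus strand): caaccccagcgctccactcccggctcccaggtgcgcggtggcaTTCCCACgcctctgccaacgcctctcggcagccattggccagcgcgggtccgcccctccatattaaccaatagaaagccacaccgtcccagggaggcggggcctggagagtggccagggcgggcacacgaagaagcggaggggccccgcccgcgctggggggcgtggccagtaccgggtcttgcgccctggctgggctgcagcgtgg
The Hes5 window held the motif at 226 and 83 bases before the start, once on each strand, and the Hey2 window held it at 207 bases. Windows were found for 8 of the 10 genes, 9 windows in all because Dll1 has 2 starts, and the other 7 windows did not hold these letters. No window was found for the targets Hes1 and Hey1, so their promoters were not searched. Among all 32851 RefSeq promoter windows of this length, 5.42% held the motif on either strand. A match is a stretch of letters, and binding was not measured here.

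In control tissue the 3 receptors, the Dll ligands and the Hes and Hey genes were all detected, in different proportions in tissue and culture. In control hippocampi Hes5 had the highest value, 31.7 ± 2.87 FPKM, but this table gives Hes5 only as 1 entry joined with its neighbour Pank4, a gene of the pantothenate kinase family. The part of that value that belongs to Hes5 is not known. Notch1 followed at 14.6 ± 0.806, Hey1 at 11.3 ± 0.849, Dll1 at 8.83 ± 0.653 and Notch2 at 7.89 ± 0.628 (SD, n = 3 each). The libraries of Dll1 and Notch2 overlapped, as did those of Dll3, Notch3, Hes1 and Jag1, each with the next in that order, at mean levels from 5.53 down to 3.15 FPKM. Hey2 was lowest at 1.58 ± 0.314.

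In control neurospheres the order was different. Dll3 led at 105 ± 7.63 FPKM, with Notch1 at 36.3 ± 0.0446 and Dll1 at 30.9 ± 0.634 (SD, n = 2 each). Hes1 and Hey1 overlapped at means of 23.6 FPKM each, above Hes5 at 21.1 and Jag1 at 16.5. Notch2 and Notch3, at 4.77 and 3.204, were below the other receptor, and Hey2 was again lowest at 1.77. In this table Hes5 had an entry of its own, and Pank4 alone was at 18.04 and 19.1 FPKM. The tables were normalised separately, so levels were not tested between them.

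In control cortex several of the genes lay close together. Dll1 was highest at 7.42 ± 0.306 FPKM, and the control ranges of Hes5, Notch2, Hey1, Notch1, Hes1 and Dll3 each overlapped the next, with means from 5.76 down to 4.32. Notch3 at 3.18 and Jag1 at 2.96 lay below these. Hey2 was at 0.312 FPKM, which corresponded to 30 and 32 recovered reads, and was below the filter for testing. In control Rnf2 hippocampi Hes5, here separate from Pank4, was at 14.1 and 8.63 FPKM. Notch1 was at 6.98 and 9.83 and Notch2 at 7.79 and 11.1, so these 2 control libraries differed for several of the genes by more than the control and cKO means did.

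**Figure D1:**
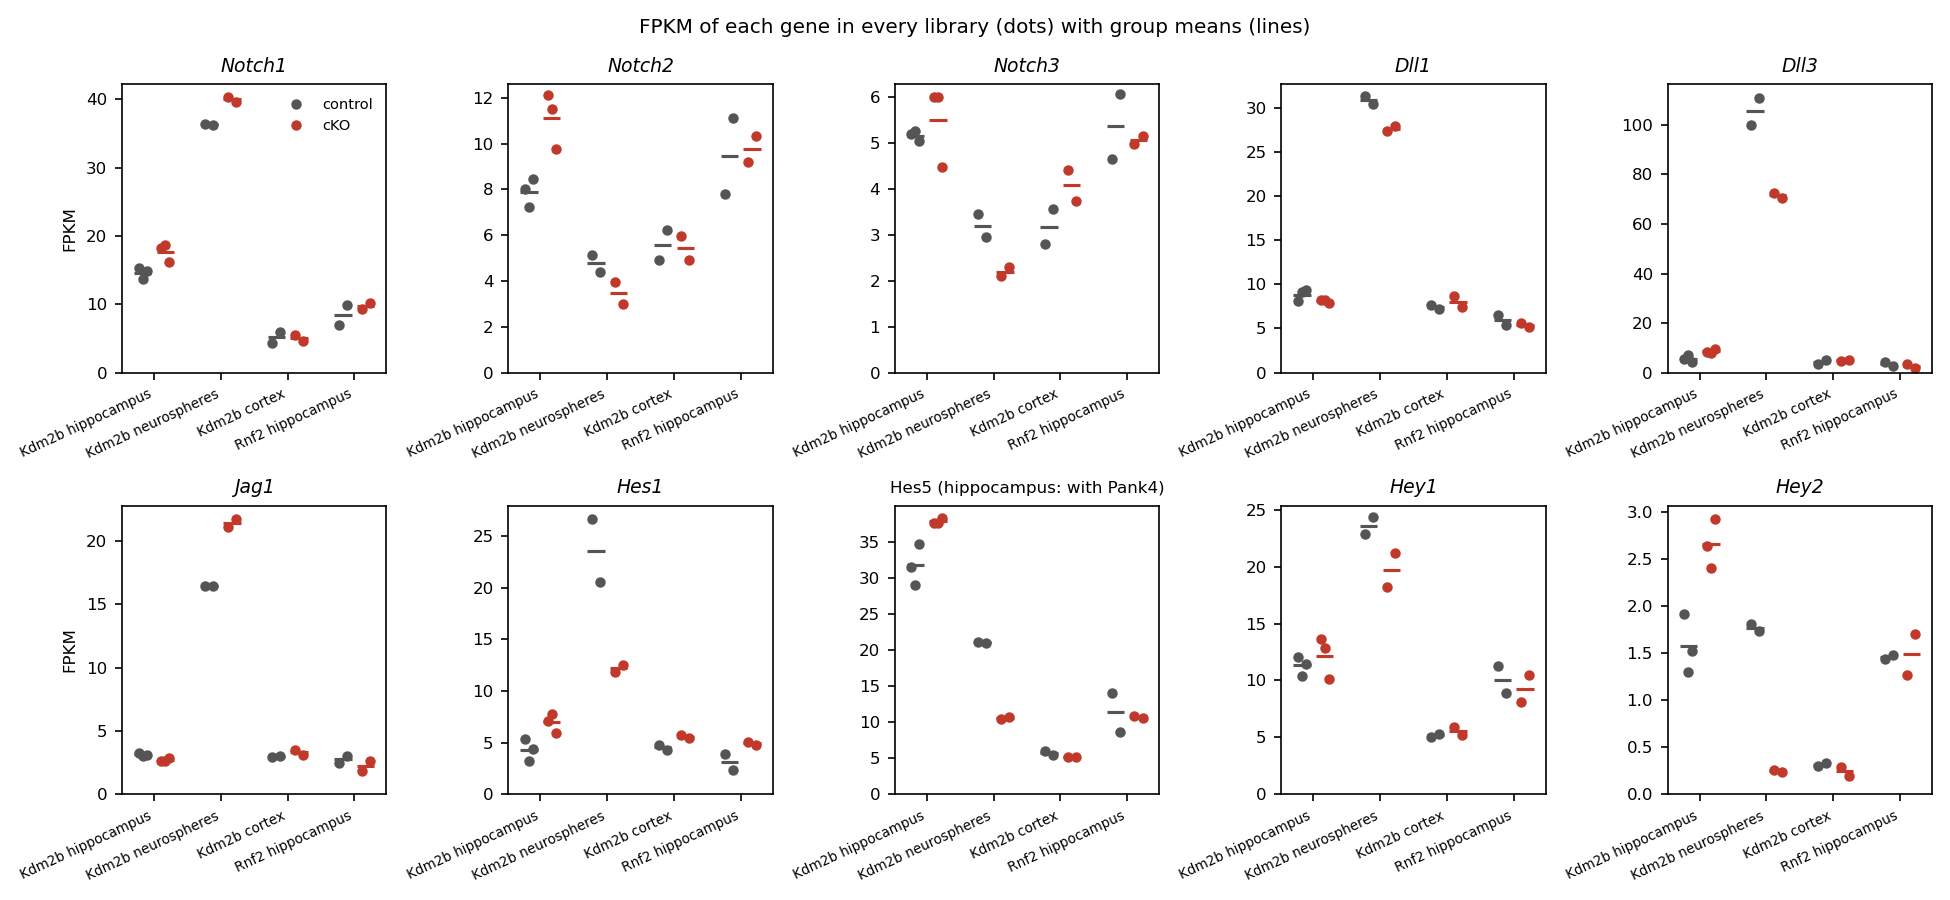
FPKM (vertical axis, linear, from 0) of each of the 10 genes in each of the 18 libraries, with control libraries in grey, cKO libraries in red and horizontal lines at group means. In Kdm2b hippocampi all cKO dots of Notch2, Dll3, Hes1 and Hey2 lie above the control dots, and in neurospheres those of Dll3, Hes1, Hes5 and Hey2 lie below. The Hes5 value of Kdm2b hippocampi includes Pank4.

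In Kdm2b cKO hippocampi 4 of the 10 genes rose and none fell. They were the receptor Notch2, the ligand Dll3 and the targets Hes1 and Hey2, and all 4 also passed an adjusted p under 0.05. Of the 13446 genes tested in this table, 3.89% were called higher and 2.25% lower, and 4.41% were called in either direction with an adjusted p under 0.05. The median log2 fold change was 0.25 over the 10 genes and 0.00837 over all genes tested.

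Among the receptors, Notch2 was 7.997, 7.22 and 8.46 FPKM in the control hippocampi and 12.1, 11.5 and 9.76 in the cKO hippocampi. The lowest cKO library was above the highest control, and the log2 fold change was 0.45 ± 0.0940 (SE) with a limma adjusted p of 0.0229. This call is the one that leaned on single libraries: without control replicate 2 or without cKO replicate 1 the change was 0.39, under the fold threshold. Notch1, the main receptor of forebrain progenitors, was 15.3, 13.7 and 14.9 FPKM in control and 18.2, 18.6 and 16.2 in cKO libraries. These groups did not overlap either, but the log2 fold change of 0.26 was below the threshold (limma adjusted p = 0.0606). Notch3, which in the brain is best known from vessel-wall cells, was 5.16 ± 0.113 against 5.50 ± 0.877 FPKM, with overlapping groups.

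The 3 ligands differed from each other. Dll3 was 5.31, 6.95 and 4.32 FPKM in control and 8.25, 7.83 and 9.66 in cKO hippocampi, a log2 fold change of 0.57 ± 0.142 (limma adjusted p = 0.0422). Dll1, the ligand of newly committed cells, was 8.83 ± 0.653 against 8.11 ± 0.222 FPKM with overlapping groups (log2 fold change -0.11). Jag1, the ligand of the Jagged type, was 3.27, 3.05 and 3.11 in control and 2.59, 2.65 and 2.86 in cKO libraries. Each cKO library was below each control, yet the log2 fold change of -0.16 did not pass the test (limma adjusted p = 0.330). Among all genes tested, 14.3% had cKO libraries all below the controls and 14.9% all above.

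Among the targets, Hes1, a repressor that maintains progenitors, was 5.35, 3.195 and 4.37 FPKM in control and 7.14, 7.80 and 5.96 in cKO hippocampi. The groups did not overlap, and the log2 fold change was 0.60 ± 0.152 (limma adjusted p = 0.0442). Hey2, a related repressor, was 1.92, 1.30 and 1.53 against 2.64, 2.41 and 2.93 FPKM, a log2 fold change of 0.51 ± 0.121 (limma adjusted p = 0.0354). The joined entry of Hes5 and Pank4 was 31.5, 29.0 and 34.7 against 37.6, 37.6 and 38.3 FPKM. Its log2 fold change of 0.25 was below the fold threshold although its limma adjusted p was 0.0477, and it does not say which of the 2 genes differed. Hey1 was 11.3 ± 0.849 against 12.2 ± 1.86 FPKM, with overlapping groups.

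Proneural genes are repressed by Hes proteins. Of 4 proneural genes tested, 2 rose and none fell. Neurog2 was 9.25, 10.7 and 8.69 FPKM in control and 26.1, 24.8 and 30.7 in cKO libraries, a log2 fold change of 1.42 ± 0.0950 (limma adjusted p = 0.000118). Neurod4, which acts after Neurog2, was 1.81 ± 0.211 against 4.02 ± 0.729 FPKM (log2 fold change 0.83).

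Of the other 46 pathway genes, 44 were tested in hippocampi, and 2 rose and none fell. Numb, which antagonises Notch by sending it to endosomes, was 3.27 ± 0.367 against 4.67 ± 0.631 FPKM (log2 fold change 0.41, limma adjusted p = 0.0598), and Hes7, an oscillating repressor of somite formation, was 0.966 ± 0.473 against 1.63 ± 0.172 with overlapping groups. The median over the 44 was 0.0447. All 8 genes of the nuclear complex and corepressor list had a positive log2 fold change, from 0.0444 to 0.29, and none was called. A positive log2 fold change was also found for 7019 of all 13446 genes tested. None of the 6 other ligands and receptors, 5 glycosylation genes or 9 cleavage genes was called, and 1 of 12 endocytosis genes and 1 of 4 tested Hes, Hey and feedback genes was.

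Cell-type markers moved in the same hippocampi. Of 9 radial glia markers 3 rose and none fell (Pax6, Nes and Vim), and of 6 intermediate progenitor markers 2 rose (Eomes and Btg2), with none lower. The summed radial glia markers overlapped, at 1269 to 1363 FPKM in control and 1289 to 1427 in cKO libraries. The summed intermediate progenitor markers were 145 to 152 FPKM in control and 164 to 176 in cKO libraries. Of these 6 markers 3 had a positive log2 fold change, and the list median was -0.00389. None of 10 proliferation markers and none of 8 neuron markers was called, while the summed neuron markers were 2334 to 2430 against 1869 to 2160 FPKM. Of 7 microglia markers 3 rose, and their sum was 57.1 to 68.0 against 69.4 to 93.2 FPKM. Of 4 choroid plexus markers tested 3 rose, with sums of 5.87 to 17.4 against 8.06 to 61.6. Of 6 astrocyte markers 2 fell, with sums of 176 to 210.5 against 184 to 260.4. None of 10 endothelial markers was called, and 1 of 8 mural cell markers fell. The part of any of these in the values of the 10 genes was not tested.

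**Figure D2:**
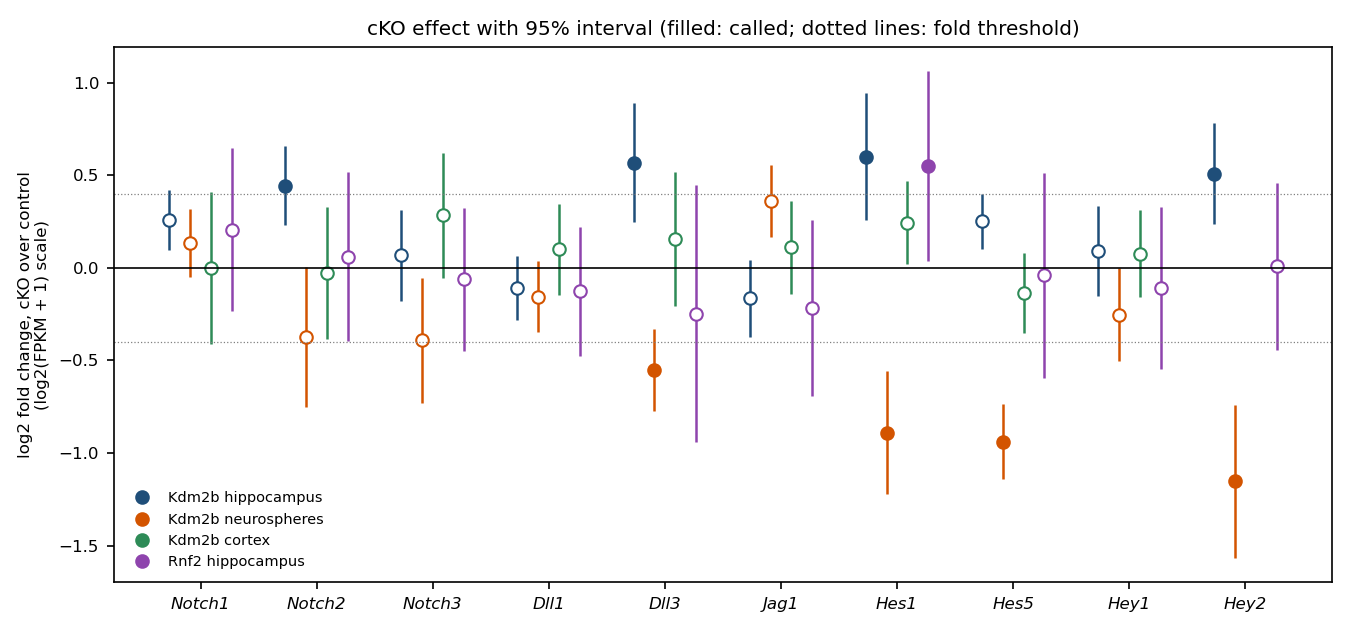
Log2 fold change of cKO over control on the log2(FPKM + 1) scale (vertical axis) for the 10 genes in the 4 comparisons, with 95% intervals, filled dots for called genes and dotted lines at the fold threshold of 0.4. The 4 filled hippocampal dots lie above 0, from 0.45 to 0.60, and the 4 filled neurosphere dots lie below, from -0.55 to -1.15, while Hey2 was not tested in cortex.

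In Kdm2b cKO neurospheres 4 of the 10 genes fell and none rose. They were the ligand Dll3 and the targets Hes1, Hes5 and Hey2, so Dll3, Hes1 and Hey2 were called in both culture and tissue, in opposite directions. Calls were common in this table, with 11.4% of the 12227 genes tested higher and 13.2% lower. The median log2 fold change was -0.38 over the 10 genes and -0.0113 over all genes. The cKO and control libraries did not overlap for any of the 10 genes, which was also the case for 66.4% of all genes.

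Hes5 was 21.1 and 21.0 FPKM in control and 10.4 and 10.7 in cKO neurospheres. The mean fell to 0.499 of the control, with a log2 fold change of -0.94 ± 0.0817 (SE, limma adjusted p = 0.00210). Pank4 alone was 18.04 and 19.1 against 15.6 and 17.3 FPKM. Hes1 was 26.7 and 20.5 in control and 11.8 and 12.5 in cKO libraries (log2 fold change -0.89 ± 0.135, limma adjusted p = 0.00897). Both cKO values were below the lower control.

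Hey2 was 1.81 and 1.73 FPKM in control and 0.257 and 0.235 in cKO neurospheres, a ratio of 0.139. Its log2 fold change of -1.15 ± 0.168 had a limma adjusted p of 0.00785. It passed the filter on low values through its control level, so that it was tested at all depended on that level. Hey1 was 22.8 and 24.4 against 18.2 and 21.2 FPKM, and its log2 fold change of -0.25 was below the threshold.

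The ligands again went separate ways. Dll3 was 100.1 and 111 FPKM in control and 72.7 and 70.5 in cKO neurospheres, a log2 fold change of -0.55 ± 0.0903 (limma adjusted p = 0.0110). Jag1 was 16.4 and 16.5 against 21.1 and 21.8 FPKM, and its log2 fold change of 0.36 ± 0.0792 stayed under the fold threshold with a limma adjusted p of 0.0271. Dll1 was 31.3 and 30.4 against 27.3 and 27.9, a difference of -0.15 that did not pass.

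No receptor was called in neurospheres. Notch1 was 36.4 and 36.3 FPKM in control and 40.4 and 39.6 in cKO libraries (log2 fold change 0.13). Notch2 was 5.13 and 4.41 against 3.96 and 2.98 (-0.37), and Notch3 was 3.45 and 2.96 against 2.10 and 2.30 (-0.39). The summed receptors were therefore 44.9 and 43.7 FPKM in control and 46.4 and 44.9 in cKO neurospheres, while the 4 summed targets were 72.5 and 67.6 against 40.7 and 44.6.

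Without the first control library the same 4 genes were called, with log2 fold changes of -0.62 for Dll3, -0.71 for Hes1, -0.93 for Hes5 and -1.13 for Hey2. Libraries were also rescaled to the same FPKM total of named genes, which moved the all-gene median of the log2 fold changes from -0.0113 to 0.0941. Over all entries, named or not, the first control library had 855276 FPKM, against 452580 to 522964 in the others. After this rescaling Hes1, Hes5 and Hey2 stayed called and Dll3 did not (log2 fold change -0.43).

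Among 39 other pathway genes tested in neurospheres, 4 rose and 2 fell, with a median of -0.0889. Jag2, a Jagged ligand given in 1 entry with the microRNA gene Mir6941, was 0.402 ± 0.0775 against 3.70 ± 0.700 FPKM (log2 fold change 1.74 ± 0.174, limma adjusted p = 0.00268). Its control level was under the filter on low values, so that it was tested at all depended on the cKO libraries. Neurl1a and Neurl1b, ubiquitin ligases of the neuralized family that act in ligand endocytosis, were 2.75 against 5.93 and 4.93 against 7.66 FPKM. Dlk2, an atypical ligand, was 1.04 against 2.699. The 2 that fell were Mib2, a ubiquitin ligase that also acts on ligands, at 17.8 against 12.7, and Psen2, a catalytic subunit of gamma-secretase, at 4.39 against 2.96. Of 3 proneural genes tested, Neurod1 rose (2.46 ± 1.29 against 5.43 ± 0.0421 FPKM).

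The neurosphere cultures also differed in their markers. All 6 astrocyte markers fell, with sums of 368 to 377 FPKM in control and 92.7 to 95.7 in cKO cultures. Of 7 oligodendrocyte lineage markers 5 fell, but the sums of the 7 overlapped, at 2433 to 2508 against 2456 to 2518 FPKM. All 10 proliferation markers rose, with sums of 440.4 to 457 against 953 to 1014 FPKM, and 3 of 9 radial glia markers rose. Of 3 intermediate progenitor markers tested 1 rose and 1 fell, and of 6 neuron markers 1 rose and 3 fell. Endothelial and microglia markers were near 0, with 8 of 10 and 6 of 7 of them under 0.5 FPKM in every neurosphere library. The part of these differences in the Hes and Hey values was not tested.

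The cKO effect in hippocampus was compared with that in neurospheres as a difference of log2 fold changes, each taken within its own table. It passed an adjusted p under 0.05 for 6 of the 10 genes, against 27.0% of the 11082 genes tested in both. The difference was 1.66 ± 0.185 (SE) for Hey2, 1.49 ± 0.236 for Hes1, 1.12 ± 0.198 for Dll3 and 0.82 ± 0.175 for Notch2, each higher in hippocampus. Hey2 entered this comparison only through its control level in neurospheres. For Jag1 the difference was -0.53 ± 0.111, with the effect higher in neurospheres. For Hes5 it was 1.19 ± 0.103, but the hippocampal entry includes Pank4 and the neurosphere entry does not. The remaining differences were 0.12 for Notch1 and 0.0466 for Dll1, with 95% intervals of -0.11 to 0.35 and -0.18 to 0.27, and 0.46 and 0.35 for Notch3 and Hey1 with limma adjusted p-values of 0.0701 and 0.147.

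**Figure D3:**
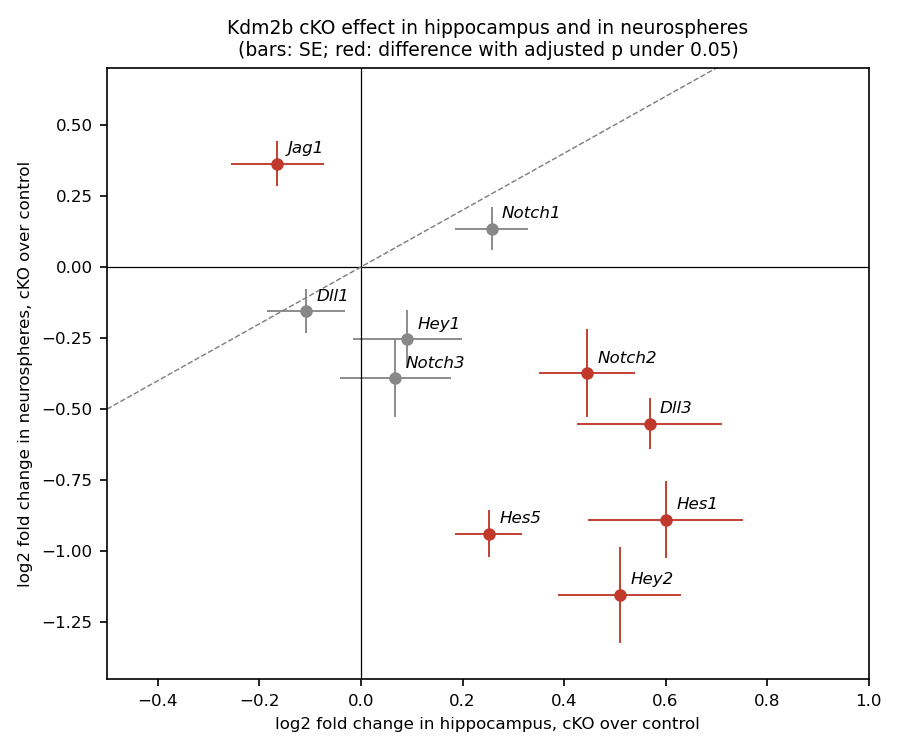
Log2 fold change of Kdm2b cKO over control in hippocampus (horizontal axis) and neurospheres (vertical axis) for the 10 genes, with bars for SE, a dashed line of equal effects and red for genes whose effects differed at an adjusted p under 0.05. Notch2, Notch3, Dll3, Hes1, Hes5, Hey1 and Hey2 sit right of and below 0, Notch3 and Hey1 in grey. Jag1 sits on the opposite side, and Notch1 and Dll1 are near the line.

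In Kdm2b cKO cortex none of the 9 genes tested was called by limma, against 7.01% of the 15691 genes tested in that table. With no fold threshold, 1 had an unadjusted limma p under 0.05, Hes1. Over all genes of that table, the alternative settings called up to 2013. Limma-voom on recovered reads called 0 with the fold threshold in place. The unadjusted limma-voom p was 0.0228 for Notch3 (log2 fold change 0.37) and 0.0806 for Hes1 (0.30). Without a fold threshold the methods therefore picked different genes. Hes1 was 4.79 and 4.32 FPKM in control and 5.70 and 5.46 in cKO cortex (log2 fold change 0.25, limma adjusted p = 0.346). Hes5 was 6.03 and 5.49 against 5.16 and 5.14, and Notch3 was 2.80 and 3.56 against 4.42 and 3.75. Neither pair of groups overlapped, as for 44.8% of all genes, and neither gene was called. Without control replicate 2, 1 of the 9 genes was called: Notch3, with a log2 fold change of 0.42.

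Notch1 was 4.31 and 5.99 FPKM in control and 5.53 and 4.68 in cKO cortex, so its control libraries spanned both cKO libraries. Its log2 fold change was 0.000623 with a 95% interval of -0.41 to 0.41, which leaves room for changes past the fold threshold. Dll3 was 3.65 and 5.00 against 4.75 and 5.03. Hey2 was 0.312 ± 0.0222 against 0.243 ± 0.0639 FPKM, from 17 to 32 recovered reads a library, with each cKO library below each control, and the filter on low values kept it out of the fit. The median log2 fold change was 0.10 over the 9 genes and -0.00527 over all genes.

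Of 44 other pathway genes tested in cortex 3 were called higher and none lower. Nrarp, a target that feeds back on Notch, was 4.23 ± 0.0820 against 6.36 ± 0.266 FPKM, a log2 fold change of 0.49 ± 0.0804 (limma adjusted p = 0.111). Neurl1a (1.51 against 2.38 FPKM) and Hes7 (0.344 against 0.778, tested through its cKO level alone) were the others. Neurog1, the relative of Neurog2, was 1.60 ± 0.134 against 3.02 ± 0.990 and was the 1 called of 5 proneural genes tested. No adjusted p among these was under 0.05.

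In the same cortices all 7 meningeal fibroblast markers rose, with sums of 1.44 to 2.37 FPKM in control and 23.8 to 40.4 in cKO libraries. Control sums this low mean that some of the 7 were under 0.5 FPKM in control. Those were tested only through their cKO level. Endothelial markers summed to 50.0 to 50.4 against 69.9 to 70.2 FPKM (3 of 10 higher and 1 lower) and mural cell markers to 30.2 to 30.4 against 45.3 to 54.1 (3 of 6 tested higher). Notch3 and Hes1 are also made by cells of the vessel wall, and the part of these cells in their cortical values was not tested. The radial glia list had 1 marker higher and 1 lower of 9.

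The difference between the hippocampal and cortical effects did not pass for any of the 9 genes (limma adjusted p from 0.122 to 0.978), where 1.63% of 10723 genes passed. The smallest unadjusted limma p-values among the 9 belonged to Notch2 and Hes5. The difference was 0.47 for Notch2 (95% interval 0.11 to 0.84) and 0.39 for Hes5 (95% interval 0.15 to 0.62, with the joined hippocampal entry). The interval for Hes1 ran from -0.11 to 0.82.

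In Rnf2 cKO hippocampi 1 of the 10 genes was called, Hes1. Its FPKM were 3.87 and 2.37 in control and 5.08 and 4.79 in cKO hippocampi, a log2 fold change of 0.55 ± 0.205 (SE) with an unadjusted limma p under the threshold. The limma adjusted p was 0.679, and no gene of this table had an adjusted p under 0.05, while 4.71% of 15764 genes were called. In reads the values were 118 and 75 against 171 and 158. Without cKO replicate 1 or without cKO replicate 2 the call was lost (log2 fold changes of 0.52 and 0.59), without control replicate 2 the change was 0.28 and not called, and with no filter on low values it was not called.

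For the other 9 genes the libraries of a group often lay far apart, in controls, in cKO or in both. Hes5 was 14.1 and 8.63 FPKM in control and 10.9 and 10.6 in cKO hippocampi, with a 95% interval of -0.59 to 0.51 for its log2 fold change. Notch2 was 7.79 and 11.1 against 9.20 and 10.4, Dll3 was 4.15 and 2.71 against 3.63 and 1.93, and Hey2 was 1.44 and 1.48 against 1.26 and 1.71. Groups overlapped for 9 of the 10 genes, and did not for 38.3% of all genes. The median log2 fold change of the 10 was -0.0501, and that of all genes -0.000244.

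Maml3, a co-activator that joins the Notch and RBPJ complex, was the 1 called of 43 other pathway genes tested in Rnf2 hippocampi (1.72 ± 0.182 against 2.90 ± 0.105 FPKM, limma adjusted p = 0.659). None of 4 proneural genes was called. Meningeal fibroblast markers summed to 39.6 to 40.3 FPKM in control and 18.1 to 27.4 in cKO libraries, with 4 of 7 called lower, and choroid plexus markers ranged from 13.4 to 51.7 against 8.96 to 245. The part of these in the Hes1 value was not tested.

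Effects of the Kdm2b and Rnf2 cKO in hippocampus did not differ at an adjusted p under 0.05 for any of the 10 genes, where 0.683% of 11281 genes did. The smallest unadjusted limma p-values among the 10 belonged to Dll3 and Hey2. The Kdm2b effect minus the Rnf2 effect was 0.81 for Dll3 (95% interval 0.16 to 1.47, limma adjusted p = 0.222) and 0.50 for Hey2 (95% interval 0.0755 to 0.93, limma adjusted p = 0.244). For Hes1 it was 0.0489, with an interval of -0.53 to 0.62 that is wide enough to hold either effect.

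**Figure D4:**
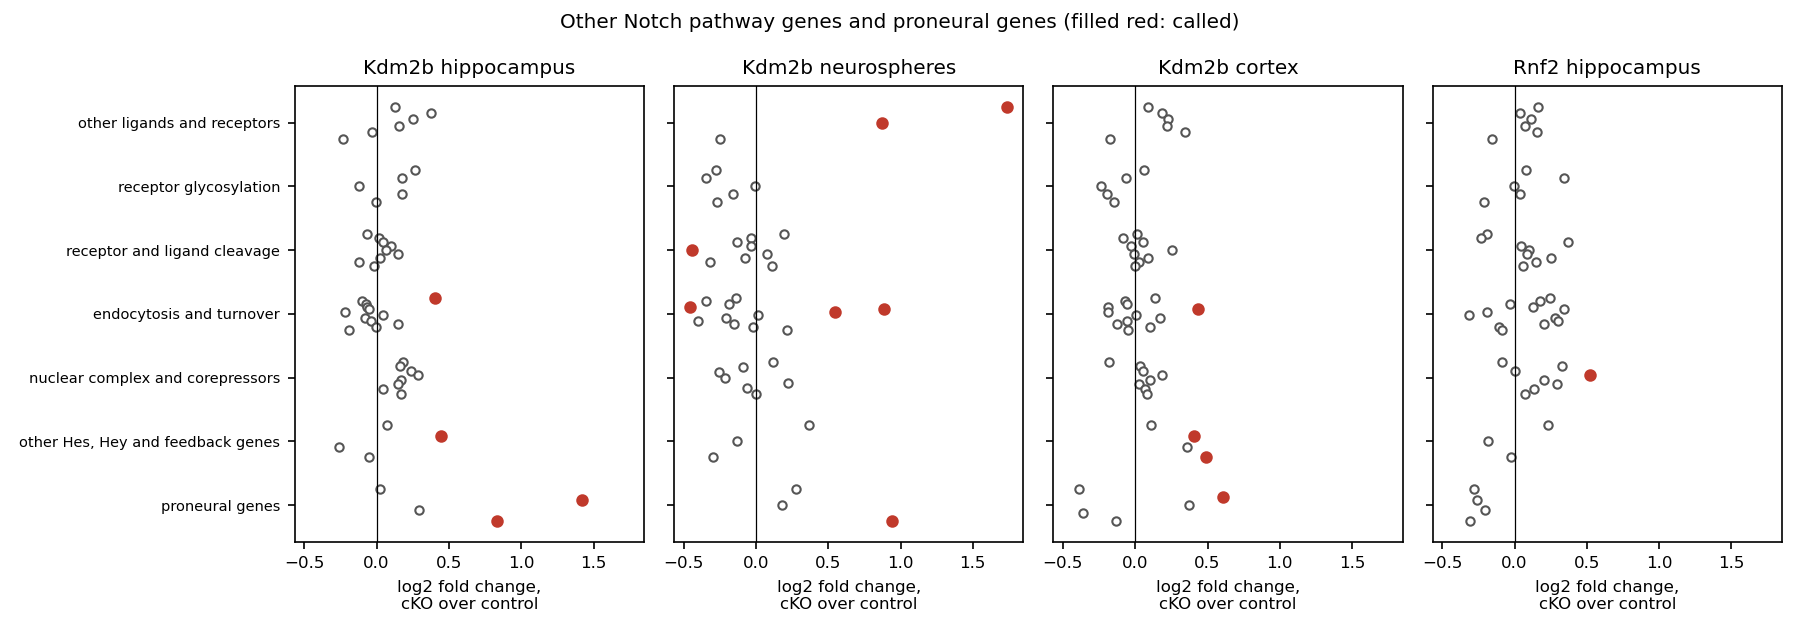
Log2 fold change of cKO over control (horizontal axis) for the other Notch pathway genes and the proneural genes, 1 dot a gene, grouped in rows by role, with 1 panel for each comparison and filled red dots for called genes. The called dots are few and scattered over roles: 4 in Kdm2b hippocampi, 7 in neurospheres, 4 in cortex and 1 in Rnf2 hippocampi, with Neurog2 at 1.42 and Jag2 at 1.74 the farthest from 0, and Jag2 was tested only through its cKO level.

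Genes with the most similar pattern were sought among 9619 genes tested in all 4 tables, by Pearson's r of log2(FPKM + 1) over the 18 libraries after each table was centred on its control mean. These libraries share their tables and controls, so the values are descriptions. For Notch1 the closest were Zbtb39 (r = 0.919), Bach2 (0.913) and Llgl1 (0.898), for Dll1 they were Add3 (0.867), Nfkb2 (0.865) and Nr3c1 (0.859), and for Hes5 they were Rsrp1 (0.953), Tmed3 (0.938) and Aldoc (0.934). The Hes5 pattern includes the entry joined with Pank4 in Kdm2b hippocampi. Aldoc, a glycolytic enzyme of astrocytes and 1 of the 6 astrocyte markers above, was 189 ± 26.8 FPKM in control and 72.0 ± 2.94 in cKO neurospheres. Its log2 fold change was -1.37 there, 0.17 in Kdm2b hippocampi, -0.26 in cortex and 0.051 in Rnf2 hippocampi. No other of the 10 genes was among these nearest 3.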

How the data were processed

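RNA-seq of 18 mouse libraries was used. For hippocampal and neurosphere libraries the authors trimmed reads (cutadapt) and mapped them to mm10 (GRCm38) by STAR. The submitters' processing notes name these tools, Cufflinks 2.2.1 and the same build for every library, without saying which tool made which table, and separate steps for the cortical and Rnf2 tables are not given in the sources used here. The values used are the deposited FPKM, and a deposited gene length, a column of other type, served to recover reads in the cortical and Rnf2 tables. Where a name had several entries, the one with the highest mean was kept. A gene whose mean reached 0.5 FPKM in a table was fitted there with limma 3.58.1 (R 4.3.3) on log2(FPKM + 1), with a trend in the variance. Effects were compared between tables by the interaction of genotype and table, over genes tested in both, with an adjusted p under 0.05. The fit was tested on simulated data. Named genes were the 10 genes, the targeted genes, called genes of the pathway and proneural lists (at most 8 a comparison) and the 3 most similar genes for Notch1, Dll1 and Hes5. The genes and lists were chosen with earlier results of these data known. Alternatives covered pseudocount, filter, scaling, variance trend, thresholds, summed entries, replicate block, recovered reads and each library left out. The values of 1 proneural gene are not reported here.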

Additional observations from a re-analysis of the deposited data

Results flagged for a closer look

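The Kdm2b cKO effect differed between hippocampus and neurospheres for 6 genes by the limma interaction test, and each difference is the log2 fold change in hippocampus minus that in neurospheres. It was 0.82 for the receptor Notch2 (adjusted p = 0.00612), 1.12 for the ligand Dll3 (adjusted p = 0.00222) and -0.53 for the ligand Jag1 (adjusted p = 0.00568). Among the targets it was 1.49 for Hes1 (adjusted p = 0.00115), 1.19 for Hes5 (adjusted p = 3.0e-05) and 1.66 for Hey2 (adjusted p = 0.000132). The Hes5 value compares an entry joined with Pank4 with an entry of Hes5 alone. Hey2 was tested in neurospheres only through its control level. Proliferation and astrocyte markers differed between the neurosphere groups as given above, and their part in these differences was not tested.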

How the results depend on the processing

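Of 1117 recomputed values for single genes, 1059 kept their direction and their side of the threshold, 9 lost and 14 gained a call and 35 changed sign. In hippocampus 3 to 4 genes were called when 1 library was left out, and in neurospheres 4 to 5. Without a fold threshold 7 were called in neurospheres and 1 in cortex. Over all genes, the alternatives called up to 4669 in neurospheres and up to 2013 in cortex, against 3012 and 1100 by the main rule. In cortex leaving out a library gave 0 to 1. In Rnf2 hippocampi 0 were called with no filter on low values and 0 with an adjusted p, and leaving out a library gave 0 to 1. With 1 library left out, genes whose effect differed numbered 6 to 8 for hippocampus against neurospheres and 0 to 1 for Kdm2b against Rnf2. Over all alternatives the former ran from 5 to 8, and Jag1 lost its pass when libraries were rescaled to the same FPKM total. Rescaling to the same FPKM total turned Notch1 in cortex to -0.0368 and the Dll1 difference between hippocampus and neurospheres to -0.0502. The causes were not tested.
With 1 library left out in turn, log2 fold changes that changed sign ran from -0.20 to 0.20 for Notch1, -0.17 to 0.12 for Notch2 and -0.0273 to 0.34 for Dll3 in cortex. In Rnf2 hippocampi they ran from -0.0142 to 0.43 for Notch1, -0.17 to 0.29 for Notch2, -0.22 to 0.10 for Notch3, -0.58 to 0.0839 for Dll3, -0.36 to 0.28 for Hes5, -0.27 to 0.0561 for Hey1 and -0.12 to 0.14 for Hey2. Differences of effects that changed sign ran from -0.00896 to 0.0824 for Dll1 between hippocampus and neurospheres and from -0.0670 to 0.13 for Hey1 between hippocampus and cortex. Between Kdm2b and Rnf2 hippocampi they ran from -0.17 to 0.27 for Notch1, -0.0346 to 0.29 for Notch3, -0.10 to 0.14 for Dll1, -0.12 to 0.23 for Jag1, -0.22 to 0.32 for Hes1 and -0.0319 to 0.61 for Hes5, the last value without Rnf2 control replicate 2, where Hes5 passed.
With a replicate block the counts of called genes stayed at 4, 4, 0 and 1. To look for pairing, the group mean of each gene was first subtracted. The deviations left correlated between same-numbered libraries at 0.0491, -0.10 and -0.0858 in hippocampus, -0.28 in neurospheres, -0.0528 in cortex and 0.16 in Rnf2 hippocampi. The numbers were therefore not taken to pair. A block with the neurosphere numbers crossed, chosen after seeing the data, also called 4. A library left alone in its group was assumed to vary like the other group. Groups of 2 or 3 libraries limit all values, and reads per library could not be recovered for the hippocampal and neurosphere tables.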
